A study of Mus musculus with 16 samples.

Results

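The 10 genes described here encode the Golgi enzymes that trim, branch, fucosylate and cap asparagine-linked glycans (N-glycans) on secreted and cell surface proteins. They are *Man2a1*, *Mgat1*, *Mgat2*, *Mgat3*, *Mgat4a*, *Mgat4b*, *Mgat5*, *Fut8*, *B4galt1* and *St6gal1*. The family was chosen by name, with earlier results of these data known, because *Mgat5* was near absent in the libraries of AMPK-KO cells. The AMPK-KO against WT contrasts therefore served in the choice, and the values of the 10 genes in them are given as a description, with no p-value and nothing drawn from whether they passed a threshold. All 10 of the 10 genes had a row in both count tables, among 49585 genes in each. All 10 were above 3 counts in each of the 4 WT libraries, and 8 were in each of the 12 libraries without AMPK.

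C2C12 is a mouse myoblast line whose confluent cells leave the cycle and fuse into myotubes when the serum is changed. RNA-seq was run on 16 libraries. In the first table, WT and AMPK-KO cells were sampled at d0 (myoblasts in growth medium) and at d8 of differentiation in equine serum, with 2 libraries in each of 4 groups. AMPK-KO cells lack both catalytic subunits of AMP-activated protein kinase, through CRISPR-Cas9 edits in exon 2 of *Prkaa1* and exon 4 of *Prkaa2*. The cells were grown as clones, and the labels do not say which clone gave which library. The second table holds AMPK-null myoblasts at d0 only, all of which carry a FLAG-BirA tag knocked in at the endogenous *Tet2* locus with an EGFP cassette. In 4 libraries the tagged TET2 is otherwise wild type (TET2-WT), and in 4 it carries the S97E substitution (TET2-S97E), with 2 clones of each genotype and 2 replicates per clone. No library in the second table has intact AMPK, so both of its groups share the AMPK deletion with the AMPK-KO cells of the first table. The study made these lines by knock-in in AMPK-null C2C12 cells. They therefore cannot be taken as independent deletions, and the labels do not say which AMPK-KO clone they came from. The study used independent AMPK-KO lines, but nothing says which libraries they gave or that the other replicates came from separate cultures, so the p-values below measure only the spread between these libraries, which may be technical, and a genotype represented by 2 clones cannot be told apart from those clones.

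As background, an N-glycan enters the Golgi as a mannose-rich tree. MGAT1 adds the first N-acetylglucosamine, the mannosidase MAN2A1 then removes outer mannoses, and MGAT2 adds the second branch. MGAT4A and MGAT4B start a further branch on one arm and MGAT5 on the other, and branches started by MGAT5 are favoured sites for long galactose and N-acetylglucosamine chains bound by galectins. MGAT3 adds a bisecting N-acetylglucosamine that hinders further branching, FUT8 adds the core fucose, B4GALT1 adds galactose to the branches, and ST6GAL1 caps the galactose with sialic acid.

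The libraries were deep, with total counts of 17883417 to 24663079 for WT and AMPK-KO and of 19801909 to 37790358 for the TET2 lines. Levels are given as CPM, counts scaled to library size within each table, and a count of 3 or fewer per library, equal to 0.0791 to 0.165 CPM, was treated as the floor of detection. The edited genes were checked first. At d0, the *Prkaa1* counts were 3287 and 2925 for WT against 1522 and 1669 for AMPK-KO, a log2 fold change of −1.01 (SE 0.126, adjusted p = 0.0116, edgeR's quasi-likelihood test). The d8 counts were 2290 and 2661 against 2043 and 1698. *Prkaa2* was lower in abundance, at 35 and 33 counts in WT d0 against 4 and 9 in AMPK-KO d0. At d8 it was at 113 and 216 counts in WT against 31 and 17 in AMPK-KO, a log2 fold change of −2.96 (SE 0.471, edgeR's quasi-likelihood test, adjusted p = 0.0190). Both transcripts were still counted in AMPK-KO and in the second table (1515 to 2863 counts of *Prkaa1* and 9 to 53 of *Prkaa2*), and a count over the whole gene does not show whether the edited exons are intact. *Tet2* had 758, 854, 1275 and 1584 counts in TET2-WT and 256, 675, 156 and 677 in TET2-S97E, a log2 fold change of −1.40 (SE 0.386) that did not pass the threshold (edgeR's quasi-likelihood test, adjusted p = 0.0621).

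Marker genes set several libraries apart. All 5 myoblast markers, of which *Des* was the most abundant, summed to 977 to 3904 CPM over the 16 libraries and were above the floor in every WT library, while *Pax7* had 0, 1, 0 and 2 counts in the 4 AMPK-KO libraries and 167, 169, 138 and 177 in the 4 WT libraries. The 7 myotube markers summed to 157 and 102 CPM in WT d0, 18.2 and 12.2 in AMPK-KO d0, 5537 and 8418 in WT d8, and 1648 and 9914 in AMPK-KO d8. The pair of AMPK-KO d8 libraries thus differed from each other more than the WT d8 pair did, with *Acta1* the most abundant marker in all 4. In the second table the myotube markers summed to 10.8, 13.6, 29.8 and 219 CPM in TET2-WT and to 4800, 1513, 1647 and 330 in TET2-S97E, although every one of these libraries is labelled a d0 myoblast. Among 4 fibroblast or mesenchymal progenitor markers, *Ly6a* had 6413 and 3823 counts in WT d0 and 75 and 32 in AMPK-KO d0. At 309 and 207 CPM, it made up most of the WT d0 sums given next. In AMPK-KO against WT, 1 of the 4 was called lower at each day (edgeR's quasi-likelihood test). At each day 3 of the 4 had a negative log2 fold change and 1 a positive one. The 4 markers together summed to 372 and 233 CPM in WT d0, 30.6 and 36.3 in AMPK-KO d0, 1308 and 1934 in WT d8, 297 and 435 in AMPK-KO d8, and 233 to 1166 in the second table, with *Dcn* the most abundant in all d8 libraries. The 3 immune markers summed to 0.845 to 6.66 CPM over the 16 libraries, nearly all of it *Cd68*, with *Adgre1* at 0 counts throughout and *Ptprc* at 0 or 1. The 3 endothelial markers summed to 1.21 to 9.62 CPM, led by *Tek* in all but 1 library, with *Pecam1* at 0 to 8 counts, and the 3 adipocyte markers to 0.0486 to 1.67 CPM, with *Adipoq* at 0 to 6 counts. The part of these marker differences in the results on the 10 genes was not tested. In bulk RNA, fewer cells of a type and less RNA per cell cannot be told apart.

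*Mgat5* (chr1:127205015-127488336, plus strand, GRCm38, a protein-coding gene as all 10 are) was near absent in every library without AMPK. It had 468 and 214 counts in WT d0 and 306 and 375 in WT d8, which is 22.6, 11.6, 16.9 and 17.6 CPM. In AMPK-KO it had 1 and 0 counts at d0 and 0 and 0 at d8. With the AMPK-KO libraries set to 3 counts each, *Mgat5* was at least 115-fold lower than in WT at d0 and at least 128-fold lower at d8. The d0 bound was 78.1-fold without WT d0 replicate 1. These values follow from the choice of the family and are a description. In the second table, whose cells also lack AMPK and whose values are likewise a description, *Mgat5* had 0 counts in 7 of the 8 libraries and 1 in TET2-S97E clone 2 replicate 2. Over all 12 AMPK-null libraries *Mgat5* summed to 2 counts, against 1363 in the 4 WT libraries. The TET2 lines descend from AMPK-null cells, so these 12 libraries are not independent of each other. The AMPK deletion and a trait of the founder cells cannot be told apart there. All of the WT libraries lay far above all of the AMPK-null ones, and *Mgat5* was at the floor in both clones of TET2-S97E.

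*Mgat4a* (chr1:37439340-37541016, minus strand), which lies on the same chromosome as *Mgat5* but far from it, followed the same pattern at a much lower level. It had 15 and 28 counts in WT d0, 15 and 20 in WT d8, and 0 in each of the 4 AMPK-KO libraries. At least a 7.54-fold lower level at d0 and at least a 6.58-fold lower level at d8 followed with the AMPK-KO libraries at the floor, and the d0 bound was 4.87-fold without WT d0 replicate 2. In the second table it had 0, 0, 0 and 1 counts in TET2-WT and 0, 2, 0 and 2 in TET2-S97E. The 12 AMPK-null libraries thus held 5 *Mgat4a* counts in all, and the 4 WT libraries 78. *Mgat4a* was so low in WT that its precision there was set by a few counts. Its close relative *Mgat4b*, which encodes an enzyme of the same activity, was abundant in all 16 libraries (2758 to 8751 counts). The other relatives of the branching transferases, *Mgat4c*, *Mgat4d* and *Mgat5b*, had 0 counts in all 16 libraries and so lay below the floor with and without AMPK.

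The sequences upstream of *Mgat5* and *Mgat4a* are shown because these are the genes at the floor, and because CG dinucleotides are the main sites of DNA methylation, the mark that TET2 oxidises. Each run is the 250 bases before the RefSeq start site (RefSeq promoter table, GRCm38.p6), 5′ to 3′ on the strand of the gene, with CG dinucleotides in capitals. The *Mgat5* run is chr1:127204736-127204985 on the plus strand and the *Mgat4a* run is chr1:37541017-37541266 on the minus strand.
Mgat5: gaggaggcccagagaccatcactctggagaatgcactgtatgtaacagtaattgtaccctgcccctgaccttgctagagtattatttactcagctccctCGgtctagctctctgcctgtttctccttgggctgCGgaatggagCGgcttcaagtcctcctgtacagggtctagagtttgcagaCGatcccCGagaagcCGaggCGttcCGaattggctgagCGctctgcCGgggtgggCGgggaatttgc
Mgat4a: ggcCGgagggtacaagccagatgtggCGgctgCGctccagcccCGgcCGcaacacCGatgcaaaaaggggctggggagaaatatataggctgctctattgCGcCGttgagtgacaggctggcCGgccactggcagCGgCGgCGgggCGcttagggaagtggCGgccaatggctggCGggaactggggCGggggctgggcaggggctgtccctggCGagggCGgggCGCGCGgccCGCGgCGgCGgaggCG
*Mgat5* had 11 CG dinucleotides in this window and *Mgat4a* had 26, and the median of all 32851 promoter windows in the table was 6. For the other members with an entry, the count was 30 for *Mgat2*, 25 for *Man2a1*, 19 for *B4galt1*, 18 for *Mgat1*, 12 for *Fut8* and 6 for *St6gal1*, and *Mgat3* and *Mgat4b* had no entry. The 2 genes at the floor therefore lay within the range of the members that were detected. E-box hexamers bound by myogenic factors were searched as CAGCTG, which reads the same on both strands, and as CAGGTG on either strand. Of all promoter windows, 13% held the first and 17.2% the second, and neither was found in the windows used for the 8 members. *Mgat1*, *Mgat4a*, *Fut8* and *St6gal1* had further entries, and the values given are for a single window of each. Methylation of these windows was not analysed here.

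Genes around *Mgat5* did not all share its pattern. Downstream, *Ccnt2*, a partner of a transcription elongation kinase, had 879 and 561 counts in WT d0, 821 and 669 in AMPK-KO d0, 870 and 1180 in WT d8, and 1162 and 1020 in AMPK-KO d8, so the genotypes overlapped at both days. *Acmsd* had 0 to 5 counts in every library. *Tmem163*, whose 3′ end overlaps that of *Mgat5* on the opposite strand, had 0 counts in all 16 libraries. Upstream, *Gpr39*, a zinc-sensing receptor, had 114 and 128 counts in WT d0 and 121 and 239 in AMPK-KO d0. At d8 it was at 4.30 and 2.72 CPM in WT and lower, at 2.61 and 1.99 CPM, in both AMPK-KO libraries. *Nckap5*, the nearest protein-coding gene upstream, was itself low, with 8, 0, 33 and 7 counts in the WT libraries and 0 in the 4 AMPK-KO libraries, and *Lypd1* had 0 to 3 counts throughout. Within the span of *Mgat5*, the processed pseudogene *Gm8451* had 3 to 4 counts in each WT library and 7 to 18 in each AMPK-KO library (values that are uncertain for a pseudogene, which can share reads with its parent gene).

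**Figure D1:**
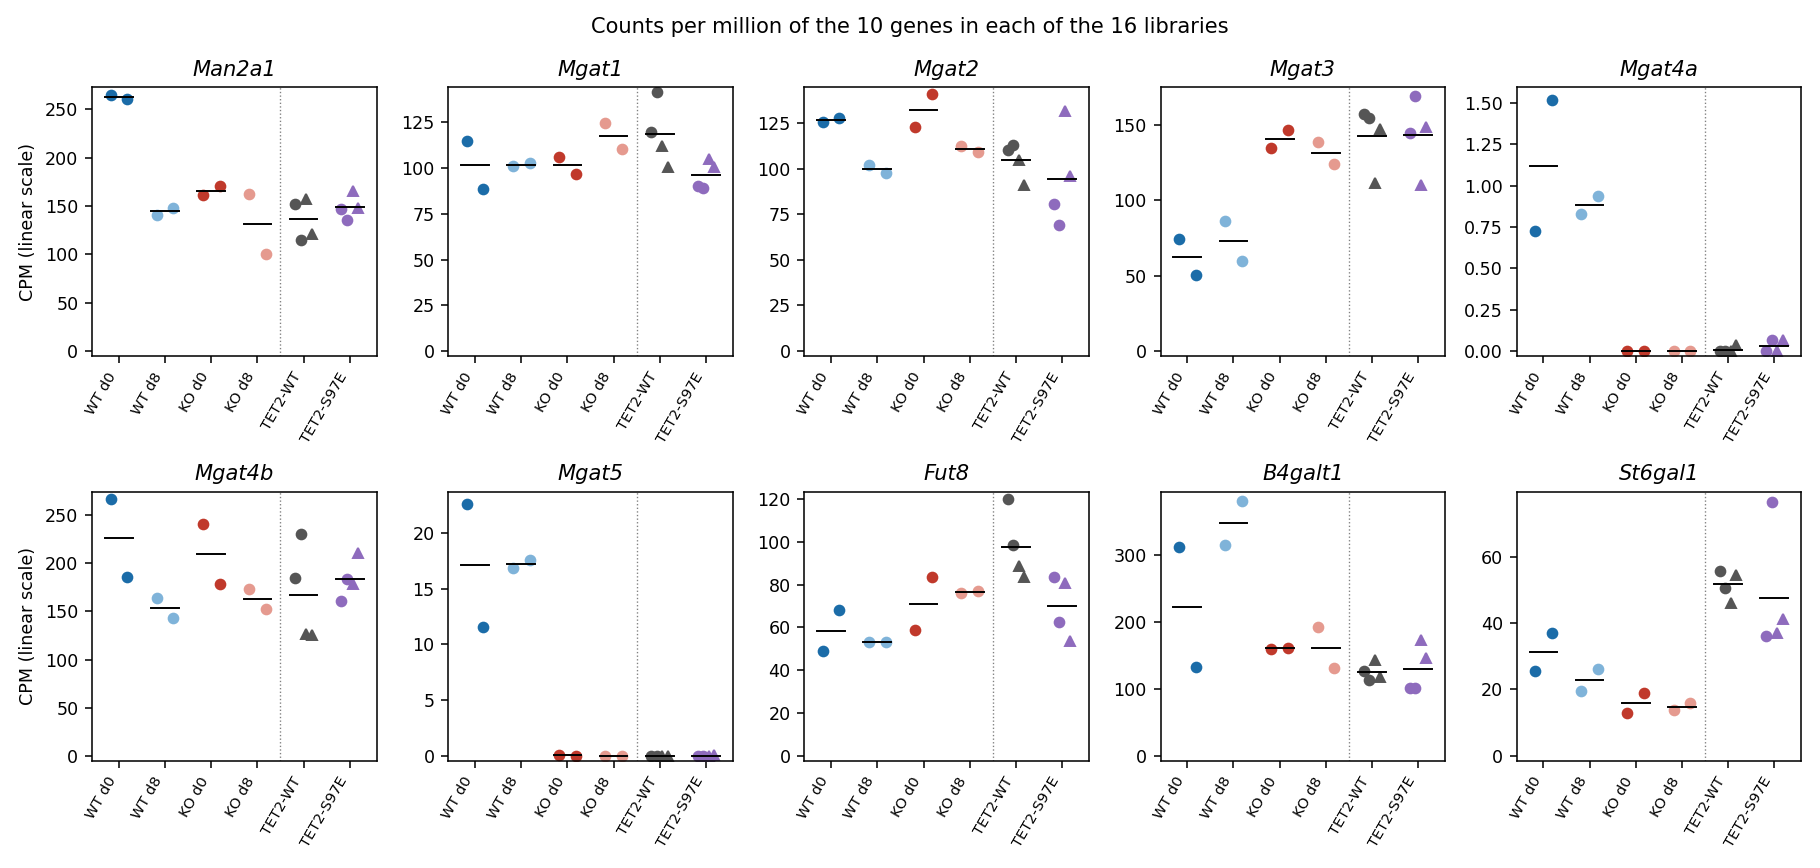
CPM of each gene (vertical axes, linear, scaled within each count table) in each library, by group; points are libraries, triangles are clone 2 of the TET2 lines, bars are group means, and the dotted line parts the 2 tables, which were normalized separately. Mgat5 and Mgat4a lie at or near 0 in all AMPK-null groups, and Mgat3 lies higher in AMPK-KO than in WT at both days.

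*Mgat3* (chr15:80173721-80215519, plus strand), the bisecting transferase, had the opposite pattern. It had 1540 and 931 counts (74.3 and 50.5 CPM) in WT d0 and 2564 and 3138 (134 and 147 CPM) in AMPK-KO d0. At d8 it had 86.0 and 59.4 CPM in WT and 138 and 124 CPM in AMPK-KO. Each AMPK-KO library exceeded each WT library at both days, and the fitted log2 differences were 1.17 (SE 0.247) at d0 and 0.85 (SE 0.245) at d8. In the AMPK-null libraries of the second table, scaled on their own, *Mgat3* ranged from 110.2 to 169 CPM, with means of 143 ± 24.3 CPM in TET2-S97E and 142 ± 21.3 in TET2-WT (SD, n = 4).

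*B4galt1* and *St6gal1*, whose enzymes add galactose and sialic acid, were lower in each AMPK-KO library than in each WT library at d8. At that day 57.9% of all tested genes were likewise free of overlap in either direction. *B4galt1* (chr4:40804602-40854005, minus strand) had 315 and 381 CPM in WT d8 and 192 and 131 in AMPK-KO d8, a fitted log2 difference of −1.11 (SE 0.388). At d0 its groups overlapped, because WT replicate 1 had 313 CPM and WT replicate 2 had 134, beside 160.1 and 162 in AMPK-KO. *St6gal1* (chr16:23224740-23360350, plus strand) had 25.5 and 37.1 CPM in WT d0 against 12.98 and 18.9 in AMPK-KO d0, and 19.4 and 26.1 in WT d8 against 13.6 and 15.9 in AMPK-KO d8, with no overlap at either day. The fitted log2 differences of *St6gal1* were −0.97 (SE 0.292) and −0.62 (SE 0.291). In the second table, scaled on its own, *St6gal1* was at 36.1 to 76.4 CPM although AMPK was absent there too, a difference between tables that was not tested.

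Of the remaining genes, *Man2a1* was free of overlap at d0 only, and *Fut8*, *Mgat1* and *Mgat2* were at d8 only. *Man2a1* (chr17:64600736-64755110, plus strand) had 264 and 260 CPM in WT d0 and 161 and 170.3 in AMPK-KO d0 (log2 difference −0.66, SE 0.227), but at d8 the WT libraries (141 and 147 CPM) lay between the AMPK-KO libraries (162 and 100.2 CPM). *Fut8* (chr12:77238125-77476338, plus strand) had 53.1 and 52.9 CPM in WT d8 and 76.0 and 77.0 in AMPK-KO d8 (log2 difference 0.53, SE 0.224), with overlap at d0. *Mgat1* (chr11:49244191-49263030, plus strand), *Mgat2* (chr12:69184157-69186770, plus strand) and *Mgat4b* (chr11:50210890-50235103, plus strand), which make the first branches and a further one, had log2 differences between −0.11 and 0.21 at both days. As a description, 2 of the 10 genes, *Mgat4a* and *Mgat5*, passed an adjusted p under 0.05 in the lower direction at each day, where 2.83% of all tested genes did so at d0 and 3.98% at d8. Nothing is read from that count, since the contrast was used in the choice of the genes. The libraries of the genotypes did not overlap for 5 of 10 genes at d0 (1 higher and 4 lower in AMPK-KO) and for 8 of 10 at d8 (4 higher and 4 lower), beside 49.4% and 57.9% of all 14329 tested genes, so such separation of 2 from 2 libraries was common.

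**Figure D2:**
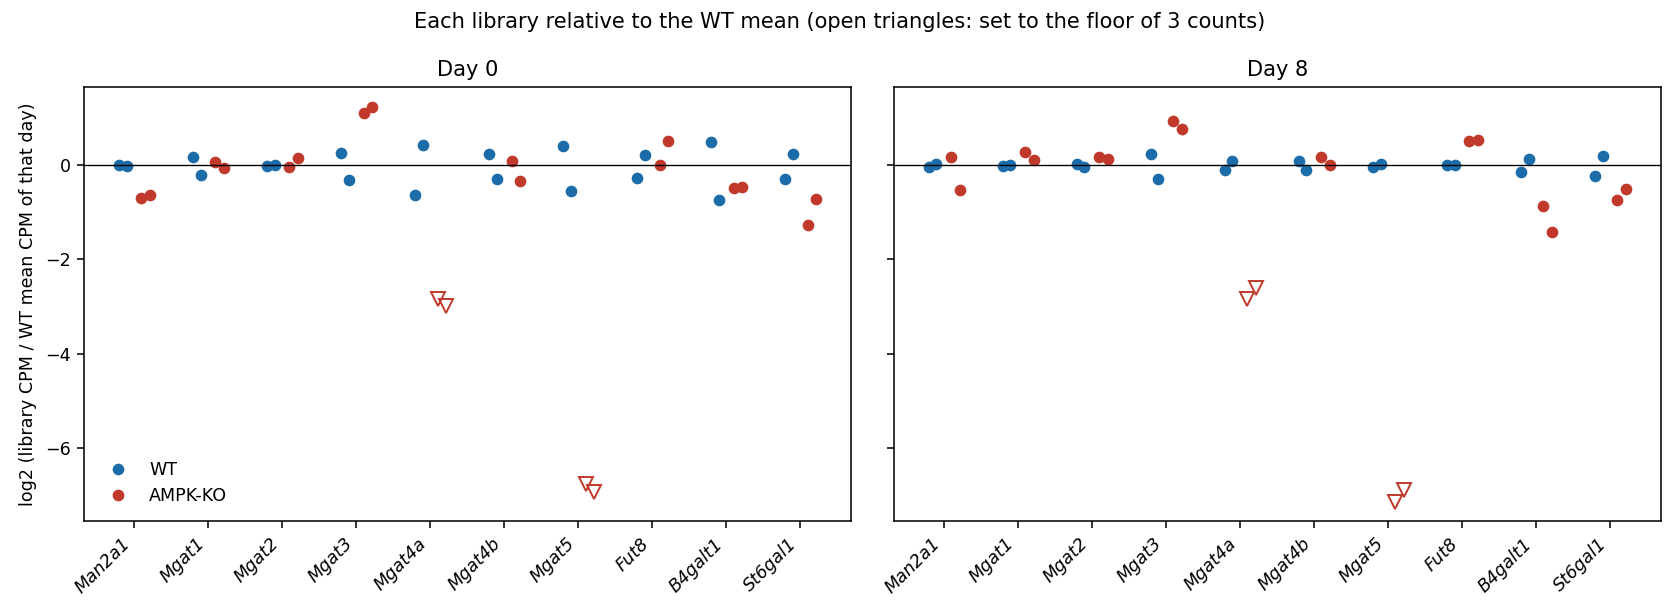
Each library's CPM over the WT mean of the same day, on a log2 axis, for WT (blue) and AMPK-KO (red) at d0 and d8, with open triangles for libraries at or under 3 counts, set to 3. Mgat5 and Mgat4a in AMPK-KO lie below all other points, and Mgat3 lies above the WT libraries at both days.

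Compared per kilobase of exon, the 10 genes kept much of their order across the libraries. *Mgat4b* ranked first in 14 of 16 libraries and *B4galt1* in the other 2, both of them WT d8. In WT d0 the levels were 83.3 ± 21.3 CPM per kb for *Mgat4b*, 52.8 ± 30.0 for *B4galt1*, 48.4 ± 0.560 for *Mgat2* and 36.3 ± 0.391 for *Man2a1* (SD, n = 2). Below them came *Mgat1* at 21.5 ± 3.92, *Mgat3* at 13.4 ± 3.61, *Fut8* at 7.39 ± 1.74 and *St6gal1* at 6.37 ± 1.66 CPM per kb. *Mgat5* and *Mgat4a* closed the order at 1.66 ± 0.754 and 0.0870 ± 0.0436 CPM per kb. *Mgat4b* and *B4galt1*, *B4galt1* and *Mgat2*, and *Fut8* and *St6gal1* overlapped between libraries of WT d0, and the other neighbours in the order did not. *Fut8* and *St6gal1* held ranks 7 and 8 in all 16 libraries, and *Mgat4a* and *Mgat5* ranks 9 and 10. *Mgat3* ranked 6 in all 4 WT libraries, 4 in all 4 AMPK-KO libraries and between 2 and 4 in the second table, and *B4galt1* ranged from rank 1 to rank 5.

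As a share of the 6 Mgat genes per kilobase, *Mgat5* made up 1.16 and 0.763% in WT d0 and 1.16 and 1.35% in WT d8. Even in WT, therefore, *Mgat5* transcripts were a small part of the set. *Mgat3* made up 8.44 and 7.33% in WT d0, 13.1 and 10.1% in WT d8, 15.4 and 18.3% in AMPK-KO d0, and 18.2 and 17.96% in AMPK-KO d8. *Mgat4b* made up 52.1 and 46.2% in WT d0 and 47.4 and 38.3% in AMPK-KO d0, which overlap, and 42.7 and 41.8% in WT d8 beside 39.1 and 38.02% in AMPK-KO d8, which do not. A share of transcripts is not a share of enzyme activity or of glycans, which were not measured.

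**Figure D3:**
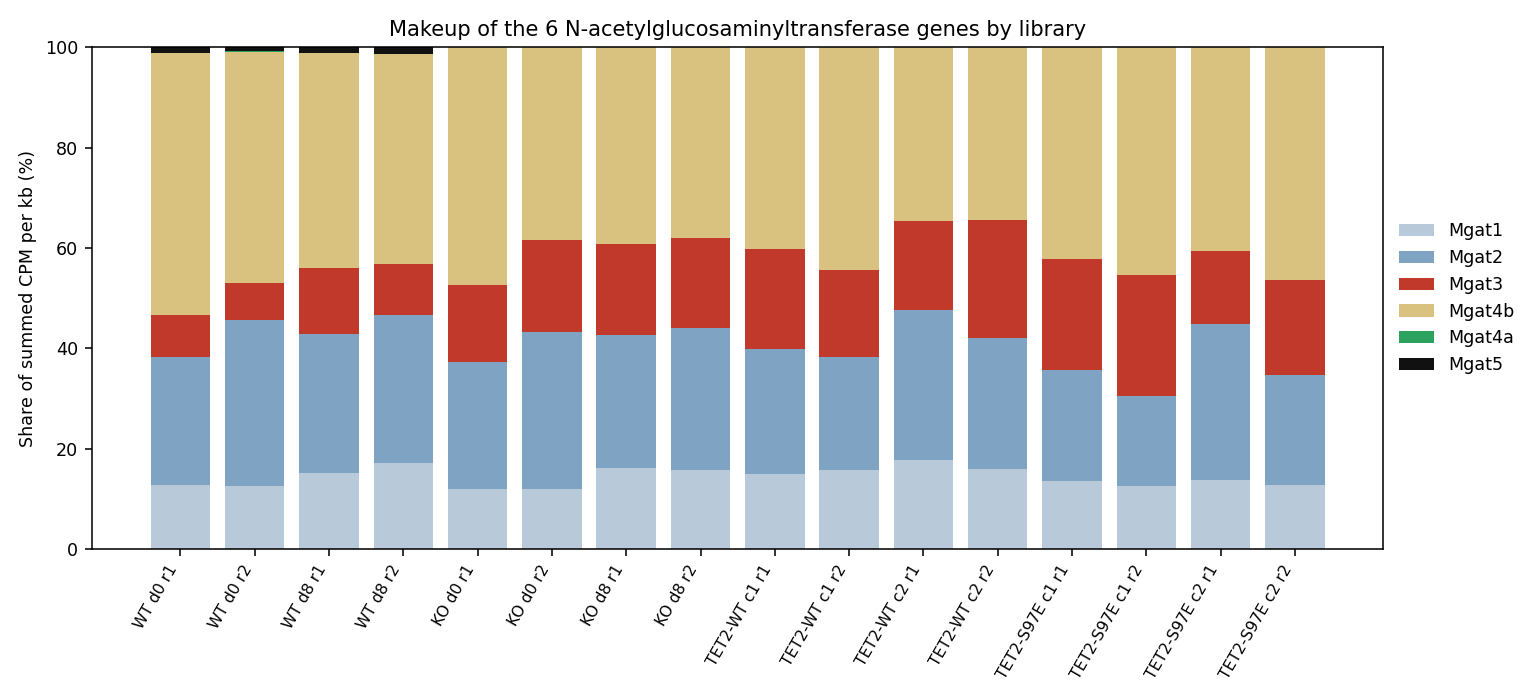
Share of the summed CPM per kb of the 6 Mgat genes (vertical axis, percent) in each of the 16 libraries; colours are genes. The Mgat5 segment is visible in the 4 WT libraries, at 0.763 to 1.35%, and the Mgat3 segment is smallest in WT d0, at 8.44 and 7.33%.

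Differentiation was compared within each genotype, and these comparisons share libraries with the genotype contrasts above. None of the 10 genes passed an adjusted p under 0.05 for d8 against d0 in WT (edgeR's quasi-likelihood test), where 12.4% of all tested genes passed in either direction. At an unadjusted p under 0.05 there were 3 (*Man2a1*, *Mgat2* and *Mgat4b*), and DESeq2 called 1 (*Man2a1*). *Man2a1* came nearest, going from 264 and 260 CPM at d0 to 141 and 147 at d8, a log2 fold change of −0.86 (SE 0.228, 95% interval −1.40 to −0.33, adjusted p = 0.0516 by edgeR's quasi-likelihood test). Its adjusted p fell under the threshold with DESeq2, without the filter on low counts, with the replicate number as a block (adjusted p = 0.0469, edgeR's quasi-likelihood test) and without either AMPK-KO d8 library.

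*Mgat2* went from 125 and 128 CPM to 102 and 97.5 (log2 fold change −0.34, SE 0.138), and *Mgat4b* from 267 and 185 CPM to 164 and 143 (log2 fold change −0.56, SE 0.234). In both genes each d8 library lay below each d0 library. *B4galt1*, the galactosyltransferase, went from 313 and 134 CPM to 315 and 381 (log2 fold change 0.64, SE 0.385). Without WT d0 replicate 1 the log2 fold change was 1.36. That fit leaves only replicate 2 in WT d0, and the removed library, at 313 CPM, lay near the d8 libraries. The libraries of the 2 days did not overlap for 4 of 10 genes in WT, 1 higher and 3 lower at d8, where 61.5% of all tested genes did not overlap. *Mgat5* itself was level in WT, with a log2 fold change of 0.01 and a 95% interval of −1.03 to 1.05.

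In AMPK-KO cells *Mgat4a* and *Mgat5* were at the floor at both days, so they could not be called for d8 against d0. None of the other 8 genes passed (edgeR's quasi-likelihood test, 9.76% of all tested genes passed), none had an unadjusted p under 0.05, and DESeq2 called 0. *Man2a1* was at 161 and 170.3 CPM at d0 and at 162 and 100.2 at d8, a log2 fold change of −0.34 (95% interval −0.87 to 0.19). *B4galt1* was at 160.1 and 162 CPM at d0 and at 192 and 131 at d8, a log2 fold change of 0.01 (95% interval −0.90 to 0.91). Groups did not overlap for 3 of these 8 genes, *Mgat1* (higher at d8), *Mgat2* and *Mgat4b* (lower), beside 59.1% of all tested genes. These 3 log2 fold changes were 0.21, −0.25 and −0.36. AMPK-KO d8 replicate 1 lay above replicate 2 for *Mgat1*, *Mgat2*, *Mgat3*, *Mgat4b*, *Man2a1* and *B4galt1*, and below it for *Fut8* and *St6gal1*. The myotube markers of this pair were at 1648 and 9914 CPM, and a link between them and the genes was not tested.

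The changes with differentiation were then compared between the genotypes by an interaction term. No gene at all passed (0% of 14329 tested, edgeR's quasi-likelihood test), 729 genes had an unadjusted p under 0.05, and DESeq2 called 60. None of the 8 genes above the floor in both genotypes was among those of either tool, or had an unadjusted p under 0.05. *Mgat4a* and *Mgat5*, at the floor in AMPK-KO, could not be called. The largest differences among genes above the floor in both genotypes were −0.64 for *B4galt1* (95% interval −1.91 to 0.64) and 0.52 for *Man2a1* (95% interval −0.23 to 1.28) on the log2 scale. The apparent falls or rises that stand out in one genotype, as for *Man2a1* in WT, are therefore not shown to differ between genotypes, and the intervals are too wide to exclude differences of that size.

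**Figure D4:**
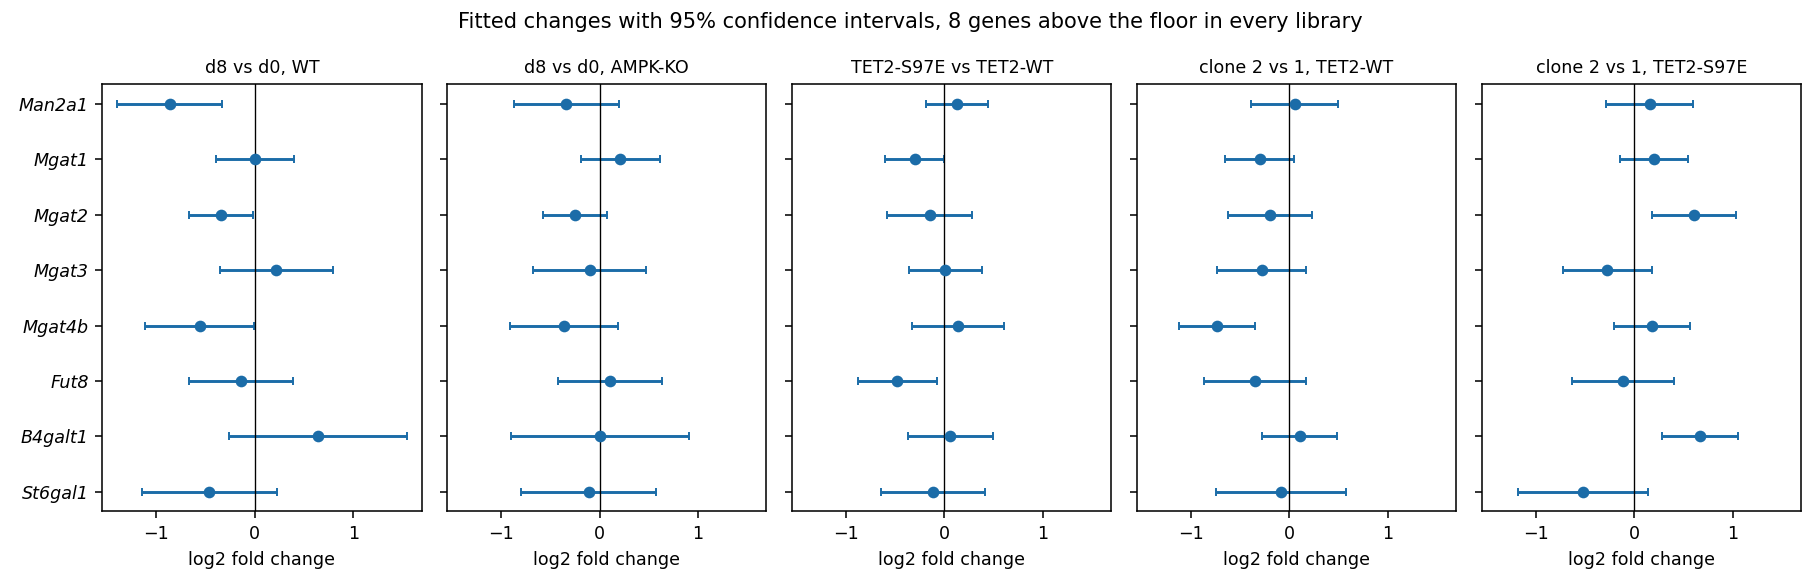
Fitted log2 fold changes (horizontal axes) with 95% confidence intervals of the 8 genes above the floor in every library, for d8 against d0 in each genotype, TET2-S97E against TET2-WT, and clone 2 against clone 1 in each TET2 genotype. Most intervals cross 0, and those that do not include Man2a1 in WT (−0.86) and Mgat4b between the TET2-WT clones (−0.73).

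TET2-S97E was compared with TET2-WT to ask whether a substitution that mimics phosphorylated TET2 altered the family in cells without AMPK. None of the 8 genes that passed the filter was called (edgeR's quasi-likelihood test), where 6.98% of 13433 tested genes were called. At an unadjusted p under 0.05 there were 2 (*Fut8* and *Mgat1*), and DESeq2 called 0. With counts summed per clone, so that the 2 clones of each genotype are the replicates, no gene in the whole table was called, and 166 were with clone as a random effect in limma-voom, none of them a member. *Mgat4a* and *Mgat5* were at the floor in all 8 libraries and were not tested.

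*Fut8* had 120, 98.3, 88.6 and 83.4 CPM in TET2-WT and 83.7, 62.4, 80.8 and 53.5 in TET2-S97E, a log2 fold change of −0.48 (SE 0.177, 95% interval −0.87 to −0.08, adjusted p = 0.142 by edgeR's quasi-likelihood test). *Mgat1* had 120, 142, 112 and 101 CPM in TET2-WT and 90.3, 88.9, 105 and 100.4 in TET2-S97E, a log2 fold change of −0.30 (SE 0.132, edgeR's quasi-likelihood test, adjusted p = 0.202). In both genes the lowest TET2-WT library overlapped the highest TET2-S97E library, and no member was free of overlap (0 of 8, beside 15.3% of all tested genes). Among libraries of the same replicate number, each TET2-S97E library lay below each TET2-WT library for *Fut8* and *Mgat1*. The share of all tested genes with such an order is not given here, so nothing is read from it. What a replicate number marks is not stated. *Mgat3* had a log2 fold change of 0.01 (95% interval −0.36 to 0.38) and *Man2a1* one of 0.13 (95% interval −0.19 to 0.44). For these, a change beyond the stated bounds would lie outside the interval, and a smaller one was not detectable here. Of the 7 myotube markers 6 were called higher in TET2-S97E, though none was with counts summed per clone. *Pax7* had 1, 6, 1 and 2 counts in TET2-WT and 42, 51, 50 and 323 in TET2-S97E.

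The clones of each genotype were then compared with each other. Within TET2-WT, *Mgat4b* had 185 and 231 CPM in clone 1 and 126 and 125 in clone 2, a log2 fold change of −0.73 (SE 0.173) with an adjusted p of 0.0892 by edgeR's quasi-likelihood test. DESeq2, the fit without a count filter and the fit with the replicate number as a block each called it. No gene of the 8 was called in this contrast by edgeR's quasi-likelihood test, 1 had an unadjusted p under 0.05 (*Mgat4b*), DESeq2 called 1, and 0.858% of all tested genes were called. The clones did not overlap for 5 of 8 genes, all lower in clone 2 (*Mgat1*, *Mgat2*, *Mgat3*, *Mgat4b* and *Fut8*), beside 53.7% of all tested genes. Myotube markers summed to 10.8 and 13.6 CPM in clone 1 and to 29.8 and 219 in clone 2. Fibroblast or mesenchymal progenitor markers summed to 247 and 233 CPM in clone 1 and to 508 and 579 in clone 2, while myoblast markers overlapped. Most of the former sum was *Dcn*, at 177 and 179 CPM in clone 1 and 413 and 502 in clone 2. Of these 4 markers, 1 was called higher and 1 lower in clone 2 by edgeR's quasi-likelihood test. The part of these markers in the differences was not tested.

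Within TET2-S97E, *B4galt1* had 101 and 101 CPM in clone 1 and 174 and 146 in clone 2, a log2 fold change of 0.67 (SE 0.170) with an adjusted p of 0.0521 by edgeR's quasi-likelihood test. *Mgat2* had 80.5 and 69.3 CPM in clone 1 and 132 and 96.2 in clone 2, a log2 fold change of 0.61 (SE 0.189, edgeR's quasi-likelihood test, adjusted p = 0.1001). None of the 8 genes was called by edgeR's quasi-likelihood test, 2 had an unadjusted p under 0.05, DESeq2 called 1 (*B4galt1*), the fit with the replicate number as a block called 2 (*B4galt1* and *Mgat2*), and 6.17% of all tested genes were called. The clones did not overlap for 4 of 8 genes, all higher in clone 2 (*Mgat1*, *Mgat2*, *B4galt1* and *Man2a1*), beside 47.6% of all tested genes. Myotube markers summed to 4800 and 1513 CPM in clone 1 and to 1647 and 330 in clone 2, which overlap. Myoblast markers did not overlap, at 3904 and 2801 CPM in clone 1 and 1287 and 977 in clone 2. Nor did the summed fibroblast or mesenchymal progenitor markers, at 346 and 276 CPM in clone 1 and 1166 and 705 in clone 2. Most of that sum was *Dcn*, at 265 and 195 CPM in clone 1 and 1102 and 641 in clone 2. Of the 4 markers, 2 had a positive and 2 a negative log2 fold change, so the set did not move together. The part of these markers in the differences was not tested.

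The rest of the N-glycan pathway was covered by 110 other genes in 7 lists, which run from the lipid-linked precursor to lysosomal breakdown. In AMPK-KO against WT at d0, 1 of 102 tested genes was higher and 1 lower, where 3.52% of all tested genes were called in either direction. Leaving out either WT d0 or either AMPK-KO d0 library took this count to 0. *Dpm3*, a subunit of the enzyme that makes dolichol-linked mannose, went from 99 and 96 counts in WT to 212 and 295 in AMPK-KO (log2 fold change 1.32, SE 0.247, edgeR's quasi-likelihood test, adjusted p = 0.0370). *Man2a2*, which encodes a second Golgi mannosidase beside MAN2A1, went from 3122 and 3108 counts in WT to 1690 and 2017 in AMPK-KO (log2 fold change −0.80, SE 0.156, edgeR's quasi-likelihood test, adjusted p = 0.0412). DESeq2 called 7 of the pathway genes at d0, and the fit with the replicate number as a block also called more.

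At d8 1 of 102 was higher and 3 were lower in AMPK-KO, where 5.35% of all tested genes were called, and the count was 0 without either WT d8 library and 1 without either AMPK-KO d8 library. *Man1a*, an early Golgi mannosidase, went from 243 and 366 counts in WT to 926 and 1132 in AMPK-KO (log2 fold change 1.60, SE 0.322). *St3gal4*, a sialyltransferase, went from 1381 and 1390 counts in WT to 947 and 636 in AMPK-KO (log2 fold change −1.02, SE 0.185), so it lay lower beside *St6gal1*. *Mpi*, which supplies mannose phosphate, went from 830 and 1036 counts in WT to 456 and 409 in AMPK-KO (log2 fold change −1.29, SE 0.177). *St8sia2*, a polysialyltransferase, had 35 and 59 counts in WT d8 and 0 in AMPK-KO d8, and it had 0 counts in all 12 AMPK-null libraries. It was at 5 and 1 counts in WT d0, so it passed the filter on low counts only through WT d8, where it is high, and its place among the 3 lower genes is a description.

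With differentiation of WT cells 5 of 102 pathway genes rose and 5 fell, 9.80% of those tested beside 12.4% of all tested genes, and none was called without WT d0 replicate 2 or without either WT d8 library. The 5 that rose include *St8sia2*, which passed the filter only through WT d8 and is given above as a description. Of the other sialyltransferase genes, *St3gal4* rose (log2 fold change 0.83, SE 0.184) and *St3gal6* fell (−1.99, SE 0.485). *Lgals1*, a galectin gene, fell (−1.03, SE 0.236), and *Neu1*, a lysosomal sialidase, rose (0.90, SE 0.205). In AMPK-KO cells 1 of 102 rose (*Man2a2*, 1.08, SE 0.157) and 5 fell, among them *Alg8* (−1.07, SE 0.211), which is 5.88% of those tested beside 9.76% of all tested genes. None of these 6 calls was left without either AMPK-KO d0 library or without AMPK-KO d8 replicate 2, 2 genes were called without AMPK-KO d8 replicate 1, and 1 was called without either WT d8 library. The interaction term called 0 of 102 (2 had an unadjusted p under 0.05, and DESeq2 called 1), so none of these changes was shown to differ between genotypes.

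In TET2-S97E against TET2-WT 1 of 100 pathway genes was higher and 2 were lower, beside 6.98% of all tested genes called. The lower genes were *Man1a* (log2 fold change −0.71, SE 0.176) and *Alg2* (−0.58, SE 0.141). None of the 3 was called with counts summed per clone, and 1 was called without either library of TET2-WT clone 1 or of TET2-S97E clone 1. Between the TET2-WT clones 0 of 101 was called (19 had an unadjusted p under 0.05, and DESeq2 called 4).

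The genes most like *Mgat5* across the 8 WT and AMPK-KO libraries included *Pcdh18*, *Pla2r1*, *Irak3* and *Clca3b*, each with a Pearson correlation of log2 CPM of 0.997. The points fall into a WT and an AMPK-KO cluster, so the correlation restates the contrast that served in the choice of the family, and it is given as a description. *Pla2r1*, for example, had 338, 141, 148 and 196 counts in the WT libraries and 0 in the 4 AMPK-KO libraries. Of 14329 tested genes, 225 had a correlation over 0.95 with *Mgat5*. The correlation does not measure the size of a change, so this is not a count of genes near absent in AMPK-KO. In the second table, which was not used for the correlation, *Pcdh18*, *Pla2r1* and *Clca3b* had 0 to 2 counts in each of the 8 libraries, as *Mgat5* did, whereas *Irak3* had 9 and 8 counts in TET2-WT clone 1. Among the other members the correlation with *Mgat5* was 0.976 for *Mgat4a* and −0.903 for *Mgat3*.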

How the data were processed

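Total RNA depleted of ribosomal RNA was sequenced from 16 libraries. Per the labels and the methods of the study, the authors demultiplexed reads with bcl2fastq 2.17, trimmed them with Trim Galore 0.4.5, aligned them to mm10 with STAR 2.5.3a and counted them per GENCODE gene with featureCounts 1.5.3. The deposited values are raw counts per gene in 2 tables, and the strand setting of the counting is not given in the sources used here, so reads of overlapping genes on opposite strands cannot be told apart.

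Here the raw counts were analysed in each table on its own, since the tables were scaled separately, with edgeR 4.0.16 in R 4.3.3 (filterByExpr, TMM, glmQLFit and glmQLFTest, 1 term per group, and 1 per clone for the clone contrasts). P-values were two-sided and adjusted by the Benjamini-Hochberg method over all tested genes, with a threshold of 0.05. Residual degrees of freedom were 4 and 6. CPM used TMM library sizes, and log2 CPM for correlations used a prior count of 2. Gene symbols, positions and exon lengths came from the GRCm38 GENCODE annotation. Intervals are at 95%, and the floor was 3 counts per library, both of which cover no more than the spread between these libraries and counting error, respectively. Alternatives were DESeq2 1.42.0, other count filters (none, or at least 10 counts in every library), a replicate block, leaving out each library or clone, counts summed per clone, and limma 3.58.1 (voom). Fold changes were recomputed under them for members with an unadjusted p under 0.05 or with no overlap between groups. The fits were tested on simulated data. Replicates differed by more than sampling noise (chi-square per degree of freedom 29.4 to 107), which does not show whether they came from separate cultures. Each library was entered in the fits on its own.

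The 10 members, the marker and pathway lists and the tests were chosen with earlier results of these data known. Named were the members, the edited genes, the markers, at most 3 called genes with the lowest adjusted p in each pathway list and comparison, the 3 nearest protein-coding genes on each side of *Mgat5*, and the 5 tested genes with the highest Pearson correlation with it. *Gm8451* and the uncounted relatives *Mgat4c*, *Mgat4d* and *Mgat5b* were named after their values were seen. Some genes that met this rule are not reported here. Drawings used matplotlib 3.10.9.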

Additional observations from a re-analysis of the deposited data

Results flagged for a closer look

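*St6gal1* in TET2-S97E clone 1 replicate 2 stood apart from the other libraries of its group, at 76.4 CPM beside 36.1, 37.0 and 41.2. Its gap to the nearest library was 0.873 of the range of the group, above Dixon's 95% critical value for 4 samples. This was 1 of 16 combinations of gene and TET2 group tested, and chance alone flags about 1 in 20.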

How the results depend on the processing

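With DESeq2 size factors in place of TMM no count of called members or pathway genes moved by more than 1.5 times, and no recomputed fold change reversed under any alternative run. The number of members called in AMPK-KO against WT is a description, since that contrast served in the choice of the genes. It moved as follows from 2 at each day: DESeq2 and the absence of a filter gave 4 at both days, the filter of at least 10 counts gave 0, since it removes *Mgat4a* and *Mgat5*, and the libraries of d0 alone gave 1. From 0 for differentiation of WT, DESeq2 gave 1 and no filter 2. From 0 between TET2-WT clones, DESeq2 and no filter gave 1 each, and from 0 between TET2-S97E clones, DESeq2, no filter and the filter of at least 10 counts gave 1 each. The number of pathway genes called went, with DESeq2 and with no filter respectively, from 2 to 7 and 8 (AMPK-KO at d0), from 4 to 7 and 9 (d8), from 6 to 12 and 12 (differentiation of AMPK-KO), from 0 to 1 and 1 (interaction), from 0 to 4 and 6 (TET2-WT clones) and from 4 to 7 and 7 (TET2-S97E clones). DESeq2 also raised it from 10 to 16 for differentiation of WT and from 3 to 9 for TET2-S97E. At least 10 counts left 1 at d0 and 2 at d8 of AMPK-KO against WT, and the d0 libraries alone left 0. For TET2-S97E, counts summed per clone and limma-voom gave 0, leaving out either TET2-WT clone gave 1, and leaving out TET2-S97E clone 2 gave 5. Without 1 library at a time, where the lone library of a group is assumed to vary like the other groups, members called ran from 0 to 2 (AMPK-KO at d0), 1 to 2 (d8), 0 to 1 (differentiation of WT) and 0 to 1 (TET2-S97E clones), and were 0 in the other comparisons. Pathway genes called ran from 0 to 2, 0 to 5, 0 to 12 and 0 to 9 for AMPK-KO at d0 and d8 and for differentiation of WT and of AMPK-KO, from 1 to 3 for TET2-S97E and from 1 to 4 for its clones. Over all genes the calls went from 505 to 1393 (DESeq2), 2026 (no filter), 204 (at least 10 counts) and 335 (that day alone) at d0, and from 766 to 1656, 2503 and 277 at d8. They went from 1771 to 2762 and 3293 for differentiation of WT, from 1398 to 2532 and 3039 for AMPK-KO and from 0 to 60 and 449 for the interaction. They went from 938 to 1825 (DESeq2), 0 (summed per clone), 166 (limma-voom), 183 and 625 (without TET2-WT clone 1 or 2) for TET2-S97E, from 124 to 894 and 1627 between TET2-WT clones and from 892 to 1383 and 1680 between TET2-S97E clones. The cause of these shifts was not tested, beyond the members that a filter removes.

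The labels do not say what a replicate number marks. Correlations of the deviations of same-numbered samples were positive for all pairs of groups in the first table (0.119 to 0.324) and ran from −0.0355 to 0.512 in the second, a hint from the data of a shared replicate effect in some groups. With a replicate block, 1 member was called for differentiation of WT, 1 between TET2-WT clones and 2 between TET2-S97E clones. Pathway genes called with the replicate block were 5 for AMPK-KO at d0, 3 between TET2-WT clones and 8 between TET2-S97E clones, and genes called over the whole table were 677 and 1540 between the clones. With 2 libraries per group in the first table, 4 in the second, and residual degrees of freedom of 4 and 6, small changes of the members were not detectable.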

Other observations

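Between the TET2-S97E clones 4 of 101 pathway genes were called (3.96%, beside 6.17% of all tested genes). *Gmds*, the first enzyme of activated fucose synthesis, had 395 and 721 counts in clone 1 and 956 and 1331 in clone 2, a log2 fold change of 1.08 (SE 0.182, edgeR's quasi-likelihood test, adjusted p = 0.00961), while *Fut8*, which uses that sugar, had a log2 fold change of −0.12 between the same clones. Of the galectins, which bind the glycans built by these enzymes, *Lgals9* was higher in clone 2 (142 and 201 counts against 605 and 756) and *Lgals3* lower (26992 and 30260 counts against 10200 and 14518). Without any single TET2-S97E library 1 or 2 of these 4 were called.

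*Gpr39*, upstream of *Mgat5*, had 40, 66, 49 and 72 counts in TET2-WT and 155, 149, 193 and 173 in TET2-S97E, a log2 fold change of 1.74 (SE 0.285, edgeR's quasi-likelihood test, adjusted p = 0.0110). With counts summed per clone neither *Gpr39* nor any other gene was called. *Mgat5* itself was at 0 or 1 counts in all 8 libraries.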
